A study of Mus musculus with 45 samples.

Results

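Engineered forms of the PDGF receptor alpha, Pdgfra V544ins and Pdgfra E10 del.v2, were compared in mouse brain tumour RNA. The arrays were chosen by the genotype in the labels, and 18 of the 45 arrays in the series belonged to the comparison, 9 for each genotype. The number that ends each sample title fell into 2 ranges, 1 to 30 and 41 to 64, and each genotype had 3 arrays in titles 1 to 30 and 6 in titles 41 to 64. The range was therefore fitted as a block, and the comparison was also made without the E10 del.v2 array with title 57. The labels do not say that the ranges are batches.

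All 18 arrays carried the p53 null background, the strain label CD-1 nude, the disease model label glioblastoma and the source mouse brain. Nude mice lack a thymus and so lack most T cells. The V544ins arrays carried the genotype Pdgfra V544ins with p53null, and the E10 del.v2 arrays Pdgfra E10 del.v2 with p53null. According to the design text, wild-type and mutant receptors were put into retroviral constructs, and cultured primary mouse astrocytes without p53 served as the recipient cells. The labels do not spell out what either mutation changes in the protein, and they do not say which arrays came from separate animals or cultures. The p-values below therefore measure only the spread between these samples. The 9 arrays of each genotype limit the precision, and no dose, time or age was given.

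PDGFRA is a receptor tyrosine kinase that PDGF ligands switch on by pairing receptor chains. The active receptor signals through the MAP kinase, PI3 kinase and STAT pathways, and the MAP kinase arm induces its own inhibitors, among them the Sprouty and DUSP genes. In brain the receptor marks oligodendrocyte progenitors, whose division it drives, and activating changes in it are found in high-grade glioma.

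Values are log2 signals from RMA, so a difference of 1 is a 2-fold difference in signal, and every difference is V544ins minus E10 del.v2. A gene was called when limma's moderated test gave a Benjamini-Hochberg adjusted p under 0.05 over all 11259 genes tested, 1 probe set a gene. In bulk RNA, fewer cells of a type and less RNA per cell cannot be told apart. Title 57 stood apart from the other 17 arrays. Its signal for Mki67, a marker of dividing cells, was 4.72, while the other E10 del.v2 arrays had 9.32 to 10.61 and the V544ins arrays 7.94 to 10.36. Its Olig2 signal, a transcription factor of the oligodendrocyte lineage, was 7.19, against 10.54 to 11.43 in the other E10 del.v2 arrays, and its Snap25 signal, a synaptic protein of neurons, was the highest of the 18 at 13.37. The gap between its 3' and 5' Actb control probe sets was also the widest, at 1.19 against 0.45 to 0.78 in the other E10 del.v2 arrays and 0.45 to 0.68 in V544ins arrays. The V544ins arrays with titles 61 and 62 stood apart in the other direction, with neuron list means of 4.60 and 5.25 and myelinating oligodendrocyte list means of 10.32 and 10.35, the lowest and highest of the 18 arrays.

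Between the genotypes 3 genes were called, or 0.0266% of those tested. Nol3, an inhibitor of apoptosis with a CARD domain, and Ehhadh, a bifunctional enzyme of peroxisomal fatty acid oxidation, were higher in V544ins tumours (0.0178%). Csgalnact1, which starts chondroitin sulfate chains, was lower (0.00888%). At an unadjusted p under 0.05, 1123 genes passed, and the median difference over all genes was 0.02.

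Nol3 had 6.96, 7.50 and 7.60 (lowest, median and highest of 9) in V544ins arrays, against 6.29, 6.63 and 6.87 in E10 del.v2 arrays. Every V544ins array lay above every E10 del.v2 array, title 57 included. The difference was 0.79 ± 0.11 (standard error), or 1.73-fold, with limma's adjusted p of 0.0192. It was 0.43 ± 0.17 in titles 1 to 30 and 0.97 ± 0.12 in titles 41 to 64. A further probe set of the gene had a difference of 0.83 with an adjusted p of 0.0203 over all probe sets, and the last of the 3 had 0.24. Nol3 was also the only gene called within titles 41 to 64 (adjusted p of 0.0409 by limma). It was called in 11 of the 18 fits that each left out 1 array.

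Ehhadh had 4.45, 5.42 and 5.96 in V544ins arrays, against 3.81, 4.07 and 4.83 in E10 del.v2 arrays. The groups overlapped: the V544ins arrays with titles 6 and 10, at 4.60 and 4.45, lay under the E10 del.v2 arrays with titles 58 and 64, at 4.83 and 4.77. The difference was 1.07 ± 0.18, or 2.10-fold, with an adjusted p of 0.0437 by limma, and it was 0.84 in titles 1 to 30 and 1.18 in titles 41 to 64. The gene was above the median of the whole table, which the filter asked of at least 3 arrays, in 7 V544ins arrays and 1 E10 del.v2 array. It was thus kept through the group where it is high, and its fold is set against signals near the low end of the table.

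Csgalnact1 had 5.62, 6.33 and 7.18 in V544ins arrays, against 6.68, 7.40 and 7.94 in E10 del.v2 arrays. The V544ins array with title 10 and the E10 del.v2 array with title 56 were the arrays that made the groups overlap most. The difference was -1.05 ± 0.17, 2.07-fold lower, with limma's adjusted p of 0.0437. Its other probe set had -0.90. Leaving out 1 array at a time, Ehhadh was called in 4 of 18 fits and Csgalnact1 in 3 of 18.

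Groups of 9 did not overlap for 4 of the 11259 genes (0.0355%), all with the higher values in V544ins tumours. Besides Nol3 these were Tafa5, a secreted protein of brain, Mrps36 and Zfyve19. Tafa5 had 9.35, 9.56 and 9.78 in V544ins arrays and 8.50, 9.09 and 9.25 in E10 del.v2 arrays, a difference of 0.56 ± 0.10 that missed the threshold (adjusted p of 0.0762 by limma). Mrps36 differed by 0.37 and Zfyve19, named after its values were seen, by 0.33, and neither was called.

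The genes next in order of p did not pass the test, and their values are given as such. On the positive side were Trpc4, a cation channel, with 1.79 ± 0.32, Cacna1h, a T-type calcium channel, with 1.04 ± 0.20, and Cyp1b1, a cytochrome P450, with 2.21 ± 0.50. Gpd1, the glycerol-3-phosphate dehydrogenase of the cytosol, had 1.39, Zfp536 0.97, Ralgds, an effector of Ras that activates Ral, 0.82, Ptgr2 0.63 and Smim20 0.60. On the negative side were C1ql3, a secreted synaptic protein, with -1.46 ± 0.29, Frzb, a secreted antagonist of Wnt, with -1.23 ± 0.26, and Klf12, a transcriptional repressor, with -0.93 ± 0.19. B9d1os had -1.08, Clic5 -0.76, Zdhhc2, a palmitoyltransferase, -0.73 and Adamts20, a secreted metalloproteinase, -0.61. Slc39a10, a zinc importer, had -0.54, Ppip5k1 -0.54, Epb41l5 -0.52 and Celf2, an RNA-binding protein, -0.47. Klf12 was the nearest of these to separate groups, at 7.08 to 8.61 in V544ins arrays and 8.59 to 9.08 in E10 del.v2 arrays. B9d1os, Clic5 and Ppip5k1 were above the table's median in 0 V544ins arrays, and in 7, 3 and 7 E10 del.v2 arrays. Cyp1b1 was above it in 9 V544ins arrays and 1 E10 del.v2 array. Each of these genes was thus kept through the genotype where it is high.

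Without title 57, 9 genes were called (0.0799%), 4 higher (0.0355%) and 5 lower (0.0444%) in V544ins tumours, and 1577 genes had an unadjusted p under 0.05. The 9 held Nol3, Ehhadh and Csgalnact1 with differences of 0.82, 0.996 and -0.96. The higher genes added were Trpc4 and Slc7a14, of the cationic amino acid transporter family. The lower genes added were Spry4, a feedback inhibitor of receptor tyrosine kinase signalling to MAP kinase, Dpyd, the first enzyme of pyrimidine breakdown, Slitrk2, a neuronal membrane protein with leucine-rich repeats, and B9d1os. With 1 further array left out at a time, Nol3 was called in 15 of 17 fits. Trpc4, Dpyd and B9d1os were called in 5 of 17, Slc7a14, Slitrk2 and Csgalnact1 in 4, and Spry4 and Ehhadh in 2.

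Trpc4 had 5.39, 6.86 and 8.28 in V544ins arrays, against 3.80, 5.08 and 5.53 in the 8 E10 del.v2 arrays. Only the V544ins array with title 8, at 5.39, lay within the range of the E10 del.v2 arrays. The difference was 1.92 ± 0.32, or 3.79-fold, with an adjusted p of 0.0388 by limma. Title 57 had 6.28, above the other E10 del.v2 arrays.

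Spry4 had 6.85, 7.07 and 8.29 in V544ins arrays, against 8.22, 8.38 and 9.27 in the 8 E10 del.v2 arrays, and 1 V544ins array, title 52, reached the lowest of them. The difference was -1.17 ± 0.21, 2.25-fold lower, with limma's adjusted p of 0.0489, close to the threshold. With title 57, whose Spry4 signal was 6.40, it was -0.93 ± 0.30 (adjusted p of 0.362 by limma). In titles 1 to 30 the gene had 6.92, 7.06 and 7.001 in V544ins arrays and 8.35, 9.27 and 8.54 in E10 del.v2 arrays. Of the other probe sets of Spry4, 1 had a difference of -0.59 without title 57 and the other 2 had -0.19 and -0.09.

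Dpyd had 6.17, 6.78 and 7.64 in V544ins arrays, against 7.68, 8.13 and 8.59 in the 8 E10 del.v2 arrays, and these groups did not overlap. The difference was -1.24 ± 0.21 (adjusted p of 0.0388 by limma), while title 57 had a Dpyd signal of 3.998. Slitrk2 had 6.60, 7.76 and 8.15 in V544ins arrays, against 8.26, 8.73 and 8.87, again without overlap, and the difference was -1.04 ± 0.19. Without title 57, groups did not overlap for 14 genes (0.124%), among them Epn2, an endocytic adaptor, which had -0.92 ± 0.17 and just missed the threshold (adjusted p of 0.0515 by limma). Slc7a14 differed by 1.19 ± 0.21 and B9d1os by -1.28 ± 0.20. B9d1os was above the table's median in 0 V544ins arrays and 7 E10 del.v2 arrays, so it too was kept through 1 genotype.

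**Figure D1:**
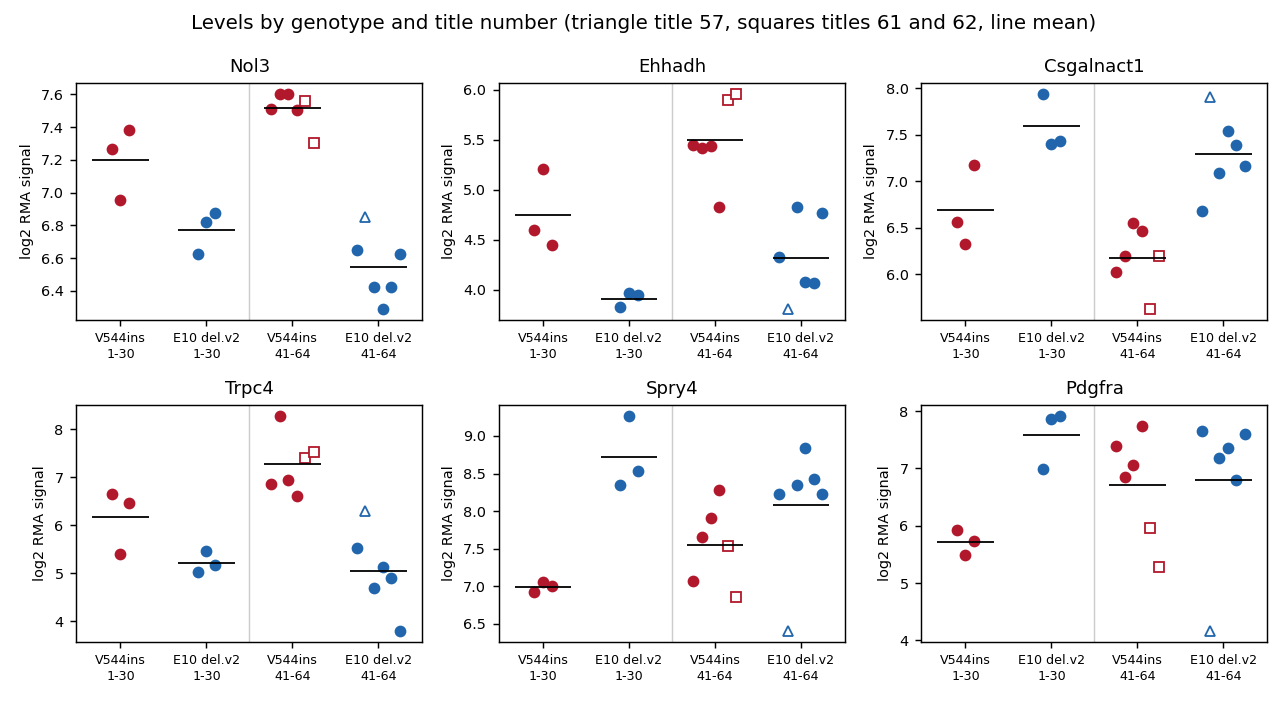
Log2 RMA signal of Nol3, Ehhadh, Csgalnact1, Trpc4, Spry4 and Pdgfra in each array, by genotype and title range, V544ins left of E10 del.v2 within each range; lines are means, the triangle is title 57 and the squares are titles 61 and 62. Nol3 separates the genotypes in every array, whereas in Spry4 and Pdgfra the triangle, at 6.40 and 4.16, lies far under the other E10 del.v2 arrays.

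As an alternative, the mean of the neuron list was also added to the fit without title 57. The count was then 63 of 11259 genes, 22 higher and 41 lower, and all 9 genes called without title 57 were among them. Both fits used the same arrays, so this overlap is not independent support. Differences under this setting were 0.77 for Nol3, 1.68 for Trpc4, -1.22 for Spry4 and -0.86 for Csgalnact1. In the fit to 18 arrays the same covariate left 0 genes called by limma, with 1963 at an unadjusted p under 0.05. In the other genotypes of the series, mean Trpc4 signals ran from 4.85 in EGFRvIII arrays to 7.81 in D842V arrays. Mean Spry4 signals ran from 6.87 in the Pdgfra E10 del group to 9.11 in the EGFRvIII group. Nol3 means were 6.30 to 7.29, with 7.87 in the single array with the wild-type receptor.

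The comparison was then made within each title range. Within titles 1 to 30, 1043 genes were called (9.26%), 299 higher (2.66%) and 744 lower (6.61%) in V544ins tumours, from 3 arrays of each genotype. Within titles 41 to 64 only Nol3 was called (0.00888%), with 2062 genes at an unadjusted p under 0.05, from 6 arrays of each. The differences in the 2 ranges, which share no array, had a Pearson r of -0.45 and a Spearman rho of -0.43 across the 11259 genes, and 34.1% of genes had the same sign in both. Without title 57 r was -0.25, and without titles 57, 61 and 62 it was -0.20. Genes within an array are not independent, so these correlations are descriptions. Of the 1043 genes called in titles 1 to 30, 206 (19.8%) had the same sign in titles 41 to 64, and 396 (38.0%) without title 57.

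The count in titles 1 to 30 rested on few arrays. It was 1 without the E10 del.v2 array with title 24, 86 without the one with title 25, 132 and 206 without the V544ins arrays with titles 10 and 8, and 2350 without the V544ins array with title 6. With the neuron list mean as a covariate it was 0 by limma, with 1175 genes at an unadjusted p under 0.05. The mean of the neuron list (17 of 17 measured members kept) was 9.89 to 10.42 in the V544ins arrays of titles 1 to 30, against 8.75 to 10.03 in the E10 del.v2 arrays. In titles 41 to 64 it was 4.60 to 7.79 in V544ins arrays, against 7.55 to 9.74 in E10 del.v2 arrays without title 57. All 17 members had a positive difference in titles 1 to 30 and a negative difference in titles 41 to 64. Of these Camk2a, a kinase of excitatory synapses, was the 1 called in titles 1 to 30 (1.53), against 2.66% of all genes called higher. One member of the list had a group mean under the median of the whole table in each genotype. The ranges themselves also differed. Without title 57, 2906 genes (25.8%) were called between titles 41 to 64 and titles 1 to 30, and 15 of the 17 neuron genes were lower in titles 41 to 64. In titles 1 to 30 the covariate itself tended to be higher in V544ins arrays, and few arrays were left to fit it beside genotype. The fall to 0 calls therefore cannot tell neuronal RNA from a loss of precision. The part of neuronal RNA in the results by range was not tested.

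**Figure D2:**
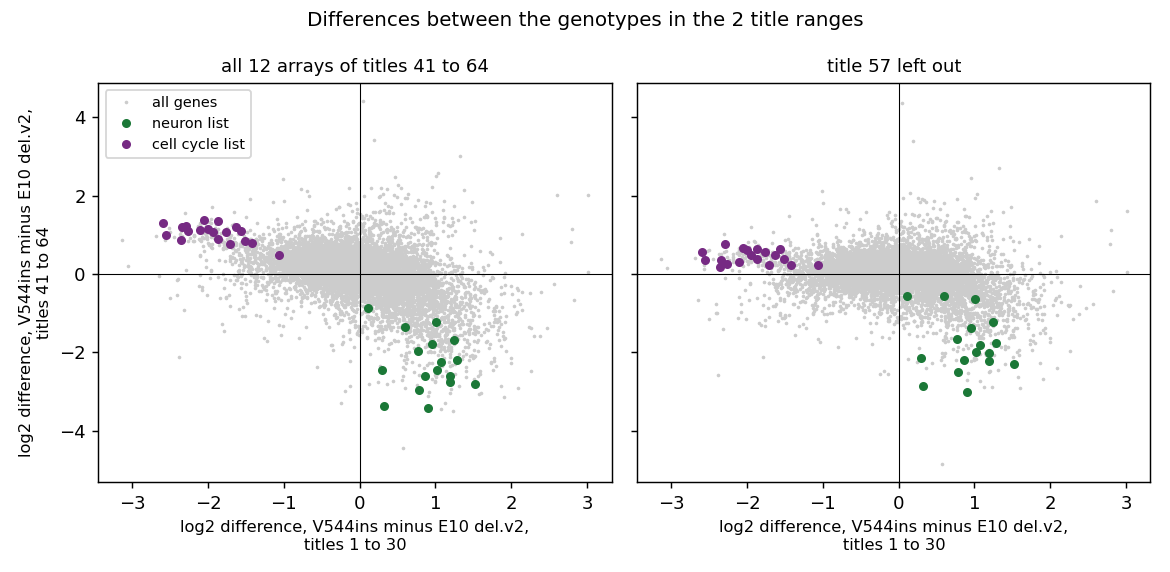
Difference between the genotypes (log2, V544ins minus E10 del.v2) in titles 1 to 30 on the horizontal axis and in titles 41 to 64 on the vertical axis, 1 point a gene, with all 12 arrays of titles 41 to 64 on the left and with title 57 left out on the right. Cell cycle genes (19) lie at -2.59 to -1.06 in titles 1 to 30 and above 0 in titles 41 to 64, and neuron genes (17) lie above 0 in titles 1 to 30 and under 0 in titles 41 to 64.

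Cell cycle genes made the largest group of calls among the lists in titles 1 to 30. All 19 measured members were lower in V544ins tumours there, with a median difference of -1.94 against -0.02 over all genes. The kinetochore kinase Bub1 had -2.59 ± 0.29, Mki67 -2.26 ± 0.19, and Pcna, the sliding clamp of DNA replication, -1.06 ± 0.17. The list mean was 6.69 to 6.94 in the 3 V544ins arrays and 8.37 to 9.11 in the 3 E10 del.v2 arrays, with no overlap. In titles 41 to 64 it was 7.92 to 9.24 in V544ins arrays and 7.83 to 9.05 in E10 del.v2 arrays without title 57, and no member was called. The median difference there was 1.09 with title 57, whose list mean was 4.52, and 0.39 without it. Of the 19 calls in titles 1 to 30, none was left without the E10 del.v2 array with title 24 or with the neuron covariate, and 7 were left without title 25, 8 without title 10 and 12 without title 8. The fit with the covariate has the limit given above for titles 1 to 30.

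The interaction term tests whether the difference between genotypes itself differed between ranges. In the 18 arrays it was called for 6 genes (0.0533%), 2 with a larger (0.0178%) and 4 with a smaller difference in titles 41 to 64 (0.0355%). Without title 57 it was called for 1178 genes (10.5%), 782 with a larger (6.95%) and 396 with a smaller difference (3.52%) in titles 41 to 64. Of the 1178, 559 were also called in titles 1 to 30. The interaction takes in the arrays of titles 1 to 30, so overlap with the calls there, cell cycle genes included, is not independent support. All 19 cell cycle genes were among the 782, with a median of 2.41, and Mki67 had 2.53 ± 0.39 (adjusted p of 0.00361 by limma). Leaving out a further array gave 167 to 1728 genes, with 7 cell cycle genes left without the E10 del.v2 array with title 25 and at least 17 in the other fits. The lowest 5 counts came from leaving out the E10 del.v2 arrays with titles 25, 24 and 63 and the V544ins arrays with titles 8 and 10, at 167, 321, 736, 444 and 485 in that order. With the neuron covariate 94 genes were called, 3 of them in the cell cycle list.

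Of the 6 genes with an interaction in 18 arrays, 4 were higher in V544ins tumours within titles 1 to 30. Spink8, a serine protease inhibitor of the Kazal type, had 7.10, 5.58 and 6.09 in the V544ins arrays there, against 3.304, 3.15 and 3.29 in the E10 del.v2 arrays of the same range. In titles 41 to 64 it had 3.05 to 4.04 in V544ins arrays, against 3.09 to 3.65 in E10 del.v2 arrays. The difference changed by -2.96 ± 0.37 between the ranges. Spink8 was above the table's median in those 3 V544ins arrays and no other, so it passed the filter only through the group where it is high, and its values are given as a description.

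Hrk, a BH3-only protein that promotes apoptosis, had 5.90, 6.80 and 6.48 in the V544ins arrays of titles 1 to 30, against 5.02, 4.58 and 5.003 in E10 del.v2 arrays. The signal was 3.43 to 4.22 in V544ins arrays of titles 41 to 64, against 3.99 to 5.43 in E10 del.v2 arrays. The interaction was -2.36 ± 0.38. Eml2, a microtubule-binding protein, had -2.89 ± 0.45, and Wnt2, a secreted ligand named after its values were seen, had -2.62 ± 0.45. Wnt2 was above the table's median in the same 3 V544ins arrays and in 1 E10 del.v2 array.

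The other 2 had the opposite pattern. Fam83d, a protein of the mitotic spindle, had 5.05, 4.92 and 4.44 in the V544ins arrays of titles 1 to 30, against 5.96, 6.20 and 6.56 in E10 del.v2 arrays. The signal was 6.12 to 6.97 in V544ins arrays of titles 41 to 64, against 5.33 to 6.40 in E10 del.v2 arrays. Its interaction was 2.32 ± 0.35, and that of Faap24, of the Fanconi anaemia core complex, was 1.23 ± 0.21. Spag5, a further spindle protein, had 2.38 ± 0.43 and was not called (adjusted p of 0.0523 by limma).

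**Figure D3:**
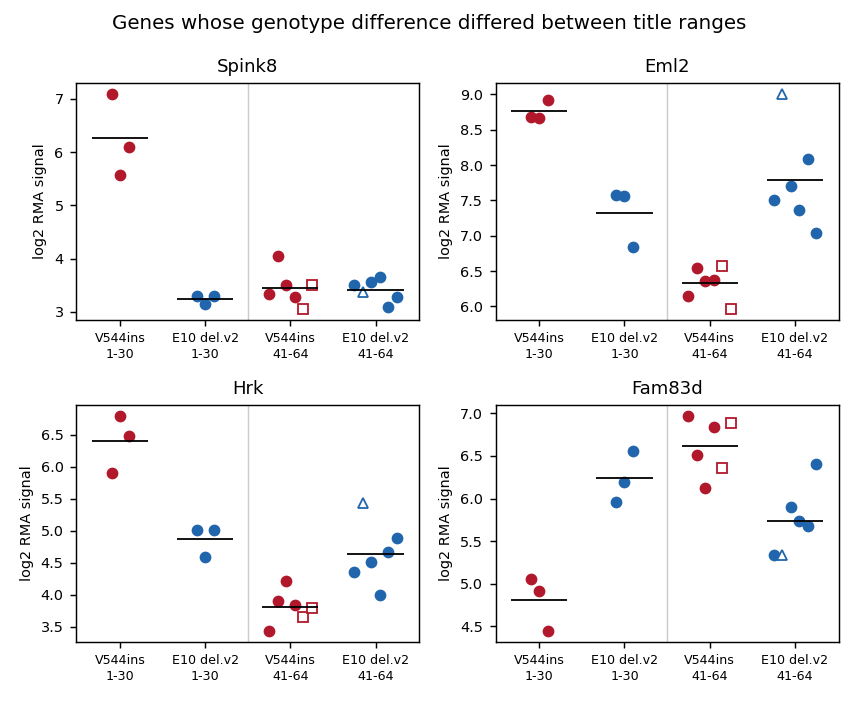
Log2 RMA signal of Spink8, Eml2, Hrk and Fam83d in each array, by genotype and title range, V544ins left of E10 del.v2 within each range; lines are means, the triangle is title 57 and the squares are titles 61 and 62. The V544ins arrays of titles 1 to 30 stand above the E10 del.v2 arrays for Spink8, Eml2 and Hrk and under them for Fam83d, and this order is not kept in titles 41 to 64.

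Of the PDGF ligands and receptors, 6 were kept and 0 were called by limma in 18 arrays or without title 57, where 0 and 2 had an unadjusted p under 0.05. Over all 11259 genes, 1123 had such a p in 18 arrays and 1577 without title 57. Every count of this kind for the lists below is to be set against these. Pdgfra had 5.29, 5.96 and 7.74 in V544ins arrays, against 4.16, 7.36 and 7.92 in E10 del.v2 arrays, and the groups overlapped. The difference was -0.67 ± 0.47 in 18 arrays and -1.05 ± 0.32 without title 57 (adjusted p of 0.195 by limma). Whether this probe set also reads the retroviral transcript is not given in the sources used here.

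Within titles 1 to 30 Pdgfra was lower in V544ins tumours. It had 5.93, 5.49 and 5.74 in V544ins arrays and 6.98, 7.86 and 7.92 in E10 del.v2 arrays there, a difference of -1.87 ± 0.28 (adjusted p of 0.0177 by limma). The Pdgfra difference in titles 41 to 64 was -0.08 ± 0.60 with title 57, whose signal was 4.16, and -0.60 without it. Kit, the related receptor of stem cell factor, was also lower in titles 1 to 30, by -0.91 ± 0.19. Of the 6 kept members of the list, 2 were lower there, against 6.61% of all genes. Calls on oligodendrocyte progenitor genes in titles 1 to 30, Pdgfra among them, fell to 0 without title 24, title 25 or title 10. The calls over all genes in this range fell from 1043 to 1 without title 24. In 18 arrays Pdgfrb differed by 0.26, the ligand gene Pdgfb by 0.31, and Egfr by -0.06, with no call. Pdgfrb was above the table's median in 5 V544ins arrays and 0 E10 del.v2 arrays.

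The MAP kinase feedback and output list had 17 kept members and a median difference of -0.08 in 18 arrays, with 0 called by limma and 2 at an unadjusted p under 0.05. Without title 57 the median was -0.19 against 0.0006 over all genes, and Spry4 was the member called. Dusp6, the phosphatase that inactivates ERK, had 8.31, 10.07 and 10.26 in V544ins arrays and 9.60, 10.48 and 11.08 in E10 del.v2 arrays. Its difference was -0.66 ± 0.25, and that of Etv5, a transcription factor induced by ERK, was -0.49 ± 0.27, and neither was called. Within titles 1 to 30, 6 of the 17 were lower, against 6.61% of all genes. They were Etv4 (-2.08), Spry4 (-1.72), Spry1 (-1.56), the cyclin Ccnd1 (-1.14), Etv5 (-1.05) and Phlda1 (-0.76). These 6 had differences in titles 41 to 64 from -0.53 (Spry4) to 0.61 (Ccnd1) and no call, and from -0.86 (Spry4) to 0.25 (Phlda1) without title 57. The 6 calls fell to 0 without title 24, to 1 without title 25 or title 10, and to 2 without title 8.

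Immediate early genes, which growth factors and neuronal activity induce, had a median difference of -0.09 over 14 members, with 0 called by limma and 1 at an unadjusted p under 0.05. Egr1 had 8.94, 10.34 and 11.46 in V544ins arrays and 9.84, 11.10 and 12.25 in E10 del.v2 arrays, a difference of -0.86 ± 0.28. Arc and Egr2 differed by -1.33 and -0.58. Title 23 had the highest of the 9 E10 del.v2 signals for all 3 genes.

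Oligodendrocyte progenitor genes had a median difference of -0.13 over 15 members in 18 arrays and -0.46 without title 57, with 0 called in both by limma and 0 and 6 at an unadjusted p under 0.05. Within titles 1 to 30, 10 of the 15 were lower, against 6.61% of all genes, with a median of -1.04. Besides Pdgfra these included the transcription factors Olig2 (-1.18), Olig1 (-0.85) and Sox6 (-1.41), the receptor Gpr17 (-1.59) and the proteoglycan genes Vcan (-1.64), Cspg5 (-0.99) and Ptprz1 (-0.91). Olig2 had 9.72, 9.69 and 9.81 in V544ins arrays there, against 10.68, 11.12 and 10.97 in E10 del.v2 arrays. The list mean was 8.73 to 9.29 in V544ins arrays, against 9.76 to 10.31 in E10 del.v2 arrays, in titles 1 to 30. For titles 41 to 64 it was 8.97 to 10.71 in V544ins arrays, the low end being titles 61 and 62, and 10.05 to 10.75 in E10 del.v2 arrays without title 57. The 10 calls fell to 0 without title 24, title 25 or title 10, and to 1 without title 8.

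Notch pathway genes, which hold neural progenitors in an undifferentiated state, were read next. By limma 0 of 11 were called in 18 arrays, with 1 at an unadjusted p under 0.05 and a median of -0.07, while 5 were lower in titles 1 to 30, against 6.61% of all genes. They were the effectors Hey2 (-2.01) and Hes5 (-1.35), the feedback gene Nrarp (-1.22) and the ligands Dll3 (-1.51), also in the progenitor list, and Dll1 (-1.01). The 5 calls fell to 0 without title 24, title 25 or title 8, and to 1 without title 10. Hey2 had 5.22, 6.78 and 8.27 in V544ins arrays, against 7.82 to 8.74 in E10 del.v2 arrays without title 57, where its difference was -1.46 ± 0.36 (adjusted p of 0.131 by limma). Hes1 differed by -0.41 in 18 arrays.

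Interferon response genes had a median difference of 1.23 over 14 members in 18 arrays, against 0.02 over all genes, and all 14 were positive. However, 0 were called by limma and 8 had an unadjusted p under 0.05, against 1123 of all 11259 genes. Irf7, the transcription factor that amplifies the type I response, had 5.77, 7.52 and 8.98 in V544ins arrays and 4.63, 5.76 and 8.49 in E10 del.v2 arrays. Its difference was 1.51 ± 0.47 (adjusted p of 0.354 by limma). Gbp2, an interferon-induced GTPase, differed by 1.41 ± 0.53 and Oasl2 by 1.46 ± 0.58. The groups overlapped for all 3, and title 57 had the lowest signal of the 18 arrays in each. Without it the list median was 0.84, with 13 of the 14 positive and 4 at an unadjusted p under 0.05.

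Microglia and macrophage genes had overlapping levels in the genotypes. The microglia list had a median of 0.35 over 11 members and the macrophage list 0.54 over 9, with 0 called by limma and 0 and 2 at an unadjusted p under 0.05. The macrophage list mean was 5.04 to 7.34 in V544ins arrays and 3.96 to 6.06 in E10 del.v2 arrays, and 8 of its 12 measured members had group means under the median of the whole table in both genotypes. Gpnmb, a glycoprotein of lipid-laden macrophages that glioma cells can also make, had 8.96, 10.42 and 11.30 in V544ins arrays and 5.48, 8.55 and 10.28 in E10 del.v2 arrays, a difference of 2.06 ± 0.58 (adjusted p of 0.326 by limma). Cd14 differed by 1.02 and Cd68 by 0.54. Csf1r, the receptor that microglia need to survive, differed by 0.47, C1qc by 0.54 and C1qa by 0.44. In titles 1 to 30 Csf1r (0.68) was the only 1 of the 11 microglia members called, against 2.66% of all genes called higher. The calls in that range rested on few arrays, as given above, so this single call is a description and not a difference in microglia.

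STAT3 and acute phase genes had a median of 0.52, and all 10 differences were positive, with 0 called by limma and 4 at an unadjusted p under 0.05. The protease inhibitor gene Serpina3n, of reactive astrocytes, had 8.84, 11.02 and 12.34 in V544ins arrays and 7.03, 9.08 and 11.04 in E10 del.v2 arrays, a difference of 1.57 ± 0.47. Timp1 had 1.29 ± 0.47 and Socs3, the feedback inhibitor of STAT3, 1.03 ± 0.45. Without title 57 the list median was 0.34, with 8 of the 10 positive and 2 at an unadjusted p under 0.05. The mesenchymal glioma list had a median of 0.41 over 20 members, with Tgfbi at 1.88 ± 0.65, S100a11 at 1.03 and Tradd at 0.49. Tradd was above the table's median in 3 V544ins arrays and 0 E10 del.v2 arrays, so it was kept through V544ins alone. Tgfbi was 11.34 and 10.92 in titles 61 and 62 and 6.09 to 8.84 in the other V544ins arrays, against 3.91 to 7.82 in E10 del.v2 arrays.

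The unfolded protein and ATF4 list had a median of 0.21 over 15 members, with 0 called by limma and 3 at an unadjusted p under 0.05. The stress factor Ddit3 had 8.26, 8.66 and 9.23 in V544ins arrays and 7.48, 8.10 and 8.47 in E10 del.v2 arrays, a difference of 0.64 ± 0.15. Trib3, a target of ATF4, differed by 1.11 ± 0.28 and Chac1, which breaks down glutathione, by 0.96 ± 0.28. For both, the difference lay in titles 41 to 64, at 1.58 and 1.45, against 0.17 and -0.04 in titles 1 to 30, and the interaction was not called. Trib3 was above the table's median in 8 V544ins arrays and 2 E10 del.v2 arrays.

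Myelinating oligodendrocyte genes had a median of 0.30 over 15 members, and 12 were positive, with 0 called by limma and 4 at an unadjusted p under 0.05. Mag had 8.15, 9.16 and 10.48 in V544ins arrays and 6.84, 7.82 and 9.38 in E10 del.v2 arrays, a difference of 1.29 ± 0.32 (adjusted p of 0.314 by limma). Opalin differed by 1.72 ± 0.50 and Mog by 1.04 ± 0.45. Titles 61 and 62 had the highest signal of the 18 arrays in all 3.

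Neuron genes had the lowest list median, -1.30 over 17 members, all negative, with 0 called by limma and 3 at an unadjusted p under 0.05. Gad1, which makes GABA, differed by -1.98 ± 0.88, the calcium sensor Vsnl1 by -2.14 ± 0.87 and Snap25 by -1.54 ± 0.64. Snap25 had 5.68, 10.49 and 12.70 in V544ins arrays and 10.27, 11.82 and 13.37 in E10 del.v2 arrays. Without title 57 the list median was -0.88. The neuropeptide and pituitary list had -0.82 over 10 members, with Sst, the gene of somatostatin, at -1.52 ± 0.69. The pituitary hormone genes Prl and Gh had 2.96 and 2.34, were not called, and reached 12.94 and 12.66 in V544ins title 62 but no more than 3.50 and 3.68 in any E10 del.v2 array. They were above the table's median in 5 and 4 V544ins arrays, so both were kept through V544ins alone. Of the choroid plexus and ependymal list, 5 members were kept. Ttr, the transthyretin of choroid plexus, had 2.44, 6.23 and 9.23 in V544ins arrays and 6.54, 8.50 and 12.82 in E10 del.v2 arrays, a difference of -2.77 ± 0.92, while Clic6 and Ccdc153 had -0.42 and -0.45. All 5 members had a positive difference in titles 1 to 30, with a median of 0.58 and 1 called higher, and a negative one in titles 41 to 64, with a median of -0.71. Ttr itself had 0.58 in titles 1 to 30 and -4.44 in titles 41 to 64. How far the sampled tissue differed between arrays was not tested.

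**Figure D4:**
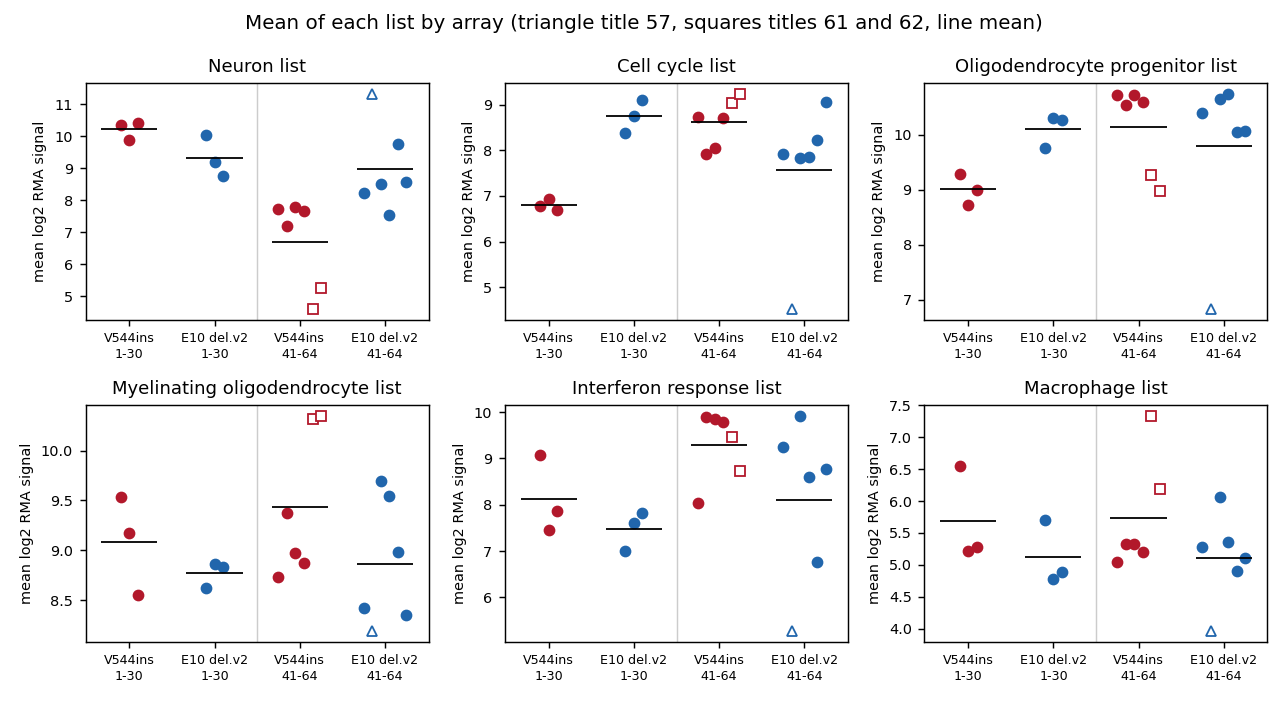
Mean log2 RMA signal of the measured members of 6 gene lists in each array, by genotype and title range, V544ins left of E10 del.v2 within each range; lines are means, the triangle is title 57 and the squares are titles 61 and 62. Title 57 is highest for neuron genes (11.33) and lowest for cell cycle genes (4.52), and the V544ins arrays of titles 1 to 30 lie at 6.69 to 6.94 for cell cycle genes.

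Sex chromosome genes were read as a check on tissue source, since the labels used here give no sex. Xist, expressed from the inactive X chromosome, was 9.81 to 11.92 in V544ins arrays and 10.16 to 11.30 in E10 del.v2 arrays. The Y-linked gene Eif2s3y had 3.12, 6.72 and 9.02 in V544ins arrays, against 8.02 to 9.03 in E10 del.v2 arrays other than title 57, which had 3.23. The V544ins array with title 49 had 3.12. Within titles 1 to 30, Eif2s3y, Uty and Kdm5d were lower in V544ins tumours, by -2.40, -2.41 and -1.98, and Xist was higher by 0.96. In 18 arrays none of the 4 was called. Without title 57 none was called either, but 3 were lower at limma's unadjusted p under 0.05. These were Eif2s3y (-1.50), Uty (-1.50) and Kdm5d (-1.13). The part of the 4 genes in the other differences was not tested.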

How the data were processed

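RNA of 45 mouse samples was measured on Affymetrix 3' IVT arrays, 1 array a sample, from 100 ng of total RNA extracted with Trizol, per the labels' protocols. The authors deposited log2 values for 45141 probe sets and used RMA, per the submitters' processing notes. RMA corrects background, normalises quantiles between arrays and summarises probes. Its version and settings are not given in the sources used here. RMA pulls the arrays to 1 distribution, so a shift shared by most genes is not seen.

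The values were used as deposited (array medians 4.66 to 4.85). Of the probe sets, 28898 had 1 gene symbol in the platform annotation, 551 several and 15692 none, and symbols were updated by gene identifier. Each of 17097 genes was read from its brightest probe set on average over the 45 arrays, and 11259 genes above the table's median (4.79) in at least 3 of the 18 arrays were tested. Trp53 is not reported here. Tests used limma 3.58.1 in R 4.3.3 with lmFit and eBayes, the title range as a fixed block, and Benjamini-Hochberg adjustment over all genes tested, called under 0.05. On simulated data it called 68.7% of genes changed by 1 (log2) and 92.4% of those changed by 2 in the 18 array comparison, with 0.794% of calls false. Within titles 41 to 64 the shares were 40.3% and 77.3% (5.62% false), and within titles 1 to 30 they were 0% and 45.5% (6.25% false). Every simulation drew independent noise with each gene's residual spread in the 18 array fit. Genes within a real array are not independent, and the simulations held no variation shared between genes. How far the recovered and false shares apply to the measured values is thus unknown, for the 18 array comparison as well. The spread within a range was not used either, which is a further limit on the shares for single ranges. In the real arrays of titles 1 to 30, 1043 genes were called, 631 of them with a difference of at least 1. Further fits left out title 57, took each range alone and added a genotype by range interaction. Fits without titles 61 and 62, single arrays left out within each range or from the interaction without title 57, and the neuron covariate in the ranges and interactions were chosen after seeing the data. The genotypes, lists and rules were chosen with earlier results of these data known.

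Named genes were up to 12 in each direction, calls by difference and then others by p, passing over predicted and clone names; 6 in each direction by p without title 57; 3 in each direction by p of the interaction; Pdgfra, Pdgfrb, Egfr and sex chromosome genes; and up to 3 members by p of each of 17 described lists, of 39 lists in all. Members in titles 1 to 30 were named from the calls there. In no fit was the whole list tested as a set. The other 22 lists had medians from -0.22 (astrocyte) to 0.53 (MHC class II) and no call in 18 arrays. Alternatives covered the block, the filter, the probe set rule, centring, quantile normalisation, the variance prior, array weights, neuron and myelin covariates and each array left out.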

Additional observations from a re-analysis of the deposited data

Results flagged for a closer look

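Of 210 groups of 9 array values (88 genes and 17 list means in each genotype), 30 held 1 array that stood apart by Dixon's test at its 95% critical value. About 5 percent of independent groups would be flagged at that value, but these groups are not independent. List means hold some of the named genes, and each group spans both title ranges. Some genes were also chosen by p in the fit without title 57. The 30 flags are therefore a description and cannot be set against the 5 percent. V544ins title 62 was low in Slitrk2 (6.60) and high in Gh (12.66), and V544ins title 6 was high in Arc (8.31). Of the 30, 21 were low values of E10 del.v2 title 57. These were Faap24 (5.21), Dpyd (3.998), Slitrk2 (6.93), Spry4 (6.40), Epn2 (7.88), Pdgfra (4.16), Hey2 (4.78), Cspg5 (9.04) and Bcan (8.04), Uty (3.08), Kdm5d (3.23) and Eif2s3y (3.23) of the Y chromosome, and the cell cycle genes Birc5 (4.21), Mcm5 (4.34) and Cdc20 (3.83). They also took in its means of the MAP kinase (7.21), mesenchymal (4.98), oligodendrocyte progenitor (6.83), Notch (5.29), cell cycle (4.52) and sex chromosome (5.21) lists. The remaining E10 del.v2 values were Tafa5 in title 56 (8.50), C1ql3 in title 59 (8.42), Egr2 (8.64) and the immediate early list mean (8.52) in title 23, and Clic6 (8.27) and the ependymal and choroid plexus list mean (6.64) in title 63.

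The difference between genotypes itself differed between title ranges, by limma's interaction term, for Spink8 (-2.96), Eml2 (-2.89), Wnt2 (-2.62), Hrk (-2.36), Fam83d (2.32) and Faap24 (1.23), each as titles 41 to 64 minus titles 1 to 30. Spink8 passed the filter on low values only through the V544ins arrays of titles 1 to 30, where it is high.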

How the results depend on the processing

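The count of 3 genes in 18 arrays was 1 with no block, a random block, a filter of 9 arrays, all probe sets, centred arrays, a trended robust prior or titles 41 to 64 alone; 0 with all 45 arrays in 1 fit, mean probe sets, the neuron or the neuron and myelin covariate, or without titles 61 and 62; 6 with array weights; and 1043 in titles 1 to 30 alone. Leaving out 1 array gave 0 to 9, where 9 is without title 57; 0 came without E10 del.v2 titles 23, 63 or 64 or V544ins titles 61, 49, 50 or 51. Nol3, Ehhadh and Csgalnact1 kept their direction in each of these fits that tested them; the filter of 9 arrays dropped Ehhadh. The 9 genes without title 57 were 63 with the neuron covariate and 3 with no block, and 0 to 20 with a further array left out (0 without E10 del.v2 titles 23 or 58, 20 without V544ins title 52). Titles 1 to 30 gave 1043, 0 with the neuron covariate, and 1 to 2350 leaving out 1 array. Titles 41 to 64 gave 1, then 0 with the neuron covariate, 3 without titles 57, 61 and 62, and 0 to 1 leaving out 1 array. The interaction's 6 became 1178 without title 57, 1340 without titles 57, 61 and 62, and 1 with the neuron covariate; without title 57 it gave 94 with the covariate and 167 to 1728 leaving out 1 array. The range effect's 0 (2628 at an unadjusted p under 0.05) became 2906 without title 57. For the named genes not called, 36 values under the 17 settings other than leaving out 1 array passed the threshold, 31 of them in titles 1 to 30 alone, and 50 changed sign without a call; leaving out 1 array added 7 and 14. The cause was not tested. No paired analysis was possible because the labels give no replicate numbers that the genotypes share; the replicate block therefore could not be fitted.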
